A study of Mus musculus with 4 samples.

Results

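The libraries titled CD74 and Trem2 were 2 of 4 cell populations sorted from mouse hearts under pressure overload, and each was profiled on 1 Clariom S gene expression array. The labels call the cells macrophages, but in the CD74 library all 21 pan-macrophage genes measured were lower than in Trem2, 8 of them under its background ceiling, while T cell genes such as Cd3e were brightest there, so it is called by its title and given no cell type. The CD74 library was compared with the Trem2 library over 19505 genes, and the Ccrl2 and CD163 libraries are given as further values. All 4 groups came from hearts of wild-type C57BL/6N mice, 15 to 16 weeks old, that had undergone transverse aortic constriction (TAC), an operation that tightens the aortic arch so that the heart pumps against raised pressure. The samples used here hold no unoperated group. Cells of 6 hearts were mixed before cell sorting, so that no library stands for 1 animal. The labels disagree on 3 points. The source names place sampling 8 weeks after TAC and the growth protocol places it 1 week after. The source name of the library titled CD74 carries CD9 in place of CD74. CD163 stands in a title, but the growth protocol has Lyve1 in its place. Libraries are called by their titles below, and the Cd74 gene itself is not analysed here. With 1 array per population no difference has a replicate check, no p-value or standard error could be given, and precision is limited by how few arrays there are.

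The CD74 protein is the invariant chain that escorts MHC class II molecules to the compartments where antigen is loaded, and it is abundant in B cells, dendritic cells and activated macrophages. TREM2 is a lipid-sensing receptor of tissue macrophages that signals through the adaptor TYROBP. Macrophages of the heart need the growth factor receptor CSF1R, clear dying cells and debris through scavenger receptors and lysosomes, and carry complement C1q, whereas T cells are defined by the CD3 chains of their antigen receptor, natural killer (NK) cells by cytotoxic granules and killer cell receptors, and neutrophils by granule and S100 proteins.

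A level below is always the deposited log2 value of a gene in 1 library, and a difference is the CD74 level minus the Trem2 level in log2 units. For each library a background ceiling was set at the 95th percentile of levels over 1498 chemosensory receptor and keratin-associated genes, which are not known as genes of leukocytes or heart. It lay at 6.53 in CD74, 5.51 in Trem2, 5.67 in Ccrl2 and 6.28 in CD163, and 3621, 8144, 7454 and 4984 genes lay above it in the same order. The CD74 library thus had the highest ceiling and the fewest genes above it, and its 95th percentile over all genes was 8.23 against 10.2 in Trem2. A gene was compared where it lay above the ceiling in at least 1 of these 2 libraries, which held for 8522 genes. It was called where the brighter library lay at least 1 log2 unit (2-fold) above the dimmer, with a dim value under its ceiling raised to that ceiling, so that such folds are lower bounds and are written as at least. Of the 8522 genes, 649 (7.62%) were called higher in CD74 and 2782 (32.6%) higher in Trem2, while 5091 lay within 2-fold, among them 9 at the top of the scale in both, whose difference could not be measured. These shares are the background for every count of a gene list below. After quantile normalization of the 4 columns the background was 18.1% higher in CD74 and 10.6% in Trem2, and of the 2 columns 17.7% and 9.94%. It was 12.9% and 17.6% after median centring and 9.46% and 25.6% after centring on ribosomal protein genes. The split followed the scale of the columns: 18.9% of the calls were higher in CD74 on the deposited values, against 63.0% after quantile normalization of the 4 columns (1543 genes higher in CD74 and 905 in Trem2), 42.2% after median centring and 27.0% after centring on ribosomal protein genes. Before dim values were raised to their ceiling, the median difference over the genes compared was -1.01 on the deposited values. It was -0.38 after quantile normalization, -0.19 after median centring and -0.67 after ribosomal centring. With dim values at their ceiling it was -0.28 on the deposited values and 0.0 after each of these scalings. The list medians below have dim values at their ceiling and are read against -0.28 and 0.0. A direction that turned under a scaling is named as such beside it.

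The unequal ceilings bear on the genes higher in CD74 in a second way. Since the ceilings lay more than 1 log2 unit apart, the 378 genes above the ceiling in CD74 alone met the 2-fold rule by construction, and 68 background genes were among the 649, or 4.54% of the 1498. With a single ceiling of 6.53 for both libraries, 177 of 6125 genes (2.89%) were higher in CD74, 5 of them background genes, and 2782 (45.4%) were higher in Trem2. With the single ceiling the shares were 18.5% and 18.4% after quantile normalization, 7.08% and 30.1% after median centring and 4.23% and 38.7% after ribosomal centring. The 649 genes had a median level of 7.03 in CD74, close to its ceiling, and 82 of them differed at least 4-fold. The 2782 genes had a median level of 9.07 in Trem2, and 1300 of them differed at least 4-fold and 234 at least 16-fold. Of the 2782, 2390 also lay above the ceiling in both Ccrl2 and CD163 and 18 in neither. Of the 649, 153 lay above it in both and 352 in neither.

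**Figure D1:**
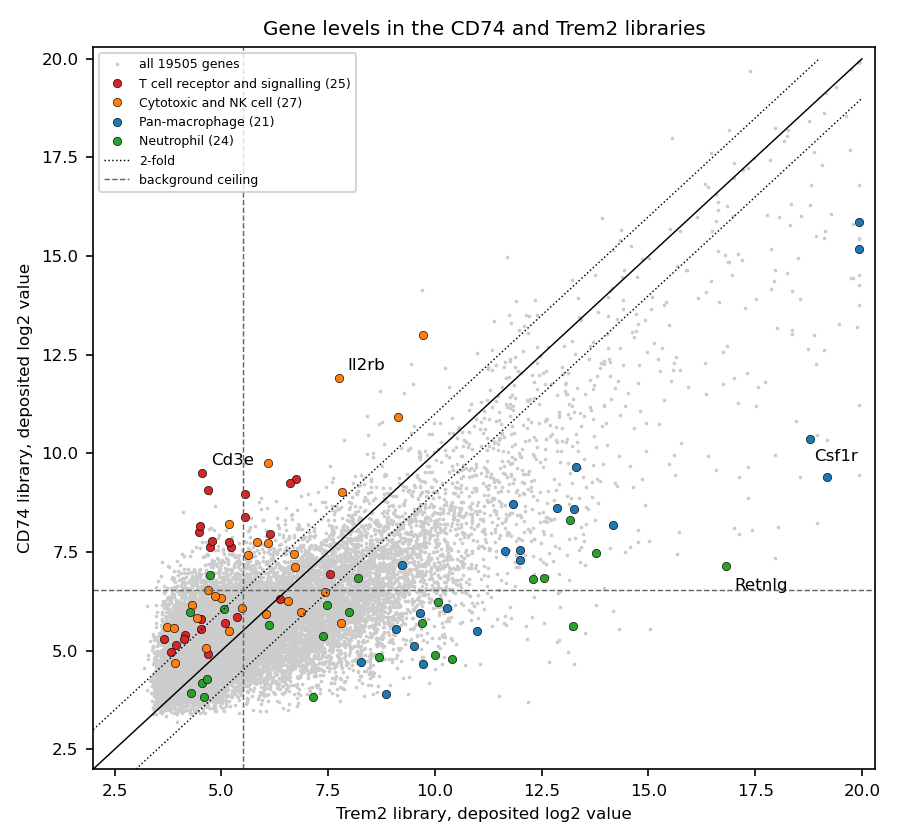
Deposited log2 level of every gene in the Trem2 library (x axis) and the CD74 library (y axis), 1 array each, with members of 4 gene lists in colour, the 2-fold lines dotted and each library's background ceiling dashed. Most compared genes of T cells and cytotoxic cells lie above the diagonal, at CD74 levels of up to 13.01, and some, such as Ncr1, lie below it. Pan-macrophage genes and most compared neutrophil genes lie below it on the Trem2 side, many of them far, with Csf1r at 19.19 and Retnlg at 16.81.

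The sort marker genes followed the title in the CD163 library, but did not set the Trem2 library apart from Ccrl2. Trem2, the receptor that gives the Trem2 library its name, had a level of 5.94 in CD74, under the ceiling, 7.20 in Trem2, 7.17 in Ccrl2 and 6.71 in CD163. Its difference between CD74 and Trem2 lay within 2-fold once the ceiling was applied. Cd9, a tetraspanin named in the source name of the CD74 library, had 8.69 in CD74 and 11.65 in Trem2, with 10.79 in Ccrl2 and 9.35 in CD163. The library whose source name carries CD9 was the lowest of the 4 for this transcript, and the difference from Trem2 fell within 2-fold after quantile normalization. Ccrl2, an atypical receptor for chemerin, stood at 9.58 in CD74, 16.59 in Trem2, 16.58 in Ccrl2 and 14.00 in CD163, a 129-fold difference between the first pair. Cd163, a haemoglobin scavenger receptor, was under the ceiling in CD74 (4.96) and had 13.11 in Trem2, 13.01 in Ccrl2 and its highest value, 14.51, in CD163. Lyve1, a hyaluronan receptor of resident macrophages, was likewise under the ceiling in CD74 (5.56) and had 14.32 in Trem2, 13.88 in Ccrl2 and the top of the scale, 19.93, in CD163. The markers of T cells, neutrophils and macrophages separated the 2 libraries by much more than Trem2 itself did, as the next paragraphs show.

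T cell genes were mostly higher in the CD74 library, where 14 of the 15 compared were above the ceiling, against 7 in Trem2 and 2 each in Ccrl2 and CD163. Of 25 T cell receptor and signalling genes with a probe set, 15 were compared, 13 were at least 2-fold higher in CD74 and 0 in Trem2. The median difference of the 15 was 2.50, against -0.28 over all genes compared. Of the 15, 8 lay above the ceiling in CD74 alone and were called by construction, so the count is a description. With a single ceiling for both libraries 13 of 14 were still higher in CD74, and so they were under every scaling tried. The scalings raised CD74 against Trem2, so they are no check on calls in this direction. The remaining 10 genes, Zap70 among them, were under both ceilings (Zap70 was picked out here after its values were seen). Cd3e, a signalling chain of the T cell receptor complex, had a level of 9.50 in CD74, 4.55 in Trem2, 4.56 in Ccrl2 and 4.13 in CD163. CD74 was the only library with this chain above the ceiling, at least 15.9-fold over Trem2. Cd3d and Cd3g, its partner chains, both had 7.62 in CD74, with 5.23 and 4.73 in Trem2 and no value over 5.06 in Ccrl2 or CD163. Cd247, the zeta chain that carries the signal inward, had 7.95 in CD74 and 6.14 in Trem2, with 6.16 in Ccrl2 and 6.00 in CD163. The 4 receptor chains thus lay highest in CD74, and the zeta chain was the one of them that also cleared the ceiling in Trem2.

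Downstream of the receptor, Lat, the adaptor that couples it to calcium and Ras signalling, had 9.07 in CD74 and 4.68 in Trem2, with 5.32 in Ccrl2 and 7.21 in CD163. Its second highest value was therefore in CD163, above the ceiling there. Prkcq, a T cell protein kinase C, had 9.26 in CD74 and 6.60 in Trem2, and Themis, needed for thymocyte selection, had 8.15 in CD74 and 4.50 in Trem2. Icos and Cd28, costimulatory receptors, had 8.98 and 8.40 in CD74 and 5.55 each in Trem2, folds of 10.8 and 7.21. The coreceptors of helper and killer T cells, picked out after their values were seen, both lay higher in CD74. Cd4 had 9.35 in CD74 and 6.75 in Trem2, and its value of 7.35 in Ccrl2 was the second highest, a gene that some myeloid cells also carry. Cd8a had 8.01 in CD74 and 4.48 in Trem2, under the ceiling, with 4.27 in Ccrl2 and 4.32 in CD163.

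For the T cell genes the reference sequence upstream of Cd3d is shown, because it was the only one of the CD3 promoters looked at (Cd3d, Cd3e and Cd3g) that held the TCF/LEF core, the letters CTTTGA on either strand, a factor family to which Lef1 belongs. It covers the 250 bases before the start of Cd3d, chr9:44981536-44981785 on the plus strand of GRCm38.p6, from RefSeq, written 5′ to 3′ with the matches in capitals, the second on the opposite strand. The matches begin 73 and 54 bases before the start.

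Cd3d: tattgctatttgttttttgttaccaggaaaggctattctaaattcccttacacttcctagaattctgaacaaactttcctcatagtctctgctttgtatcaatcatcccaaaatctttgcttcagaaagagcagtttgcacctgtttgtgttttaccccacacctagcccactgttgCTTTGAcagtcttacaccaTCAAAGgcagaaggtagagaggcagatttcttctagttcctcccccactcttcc

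Of 16 T cell list genes with a promoter in the table, 37.5% held these letters, against 13.2% of all 15691 genes, but 0 of 12 naive and memory lymphocyte genes did and 31.6% of 19 interferon response genes did. A match is a description of letters and does not show that a factor binds there.

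Cytotoxic and NK cell genes were mostly higher in CD74 or within 2-fold. Of 27 with a probe set, 16 were compared, 9 were higher in CD74 and 1 in Trem2, with a median difference of 1.41. Above the ceiling lay 11 in CD74, 15 in Trem2, where the ceiling is lower, 1 in Ccrl2 and 2 in CD163. Unlike T cell genes, they were thus detected in Trem2 as widely as in CD74. Of the 16, 10 were highest in CD74 and 5 in Trem2. Il2rb, the beta chain of the interleukin receptor shared by NK and memory T cells, had 11.91 in CD74, 7.76 in Trem2, 4.45 in Ccrl2 and 5.33 in CD163. It was above the ceiling in CD74 and Trem2 and in neither of the other libraries, and CD74 exceeded Trem2 17.8-fold. Gzma, a granule protease, had 13.01 in CD74, 9.71 in Trem2, 4.54 in Ccrl2 and 6.42 in CD163, the brightest gene of the list. Nkg7, a granule membrane protein, had 9.75 in CD74 and 6.10 in Trem2, and Ctsw, a cathepsin of killer cells, had 8.21 and 5.19. Other defining genes of killer cells lay within 2-fold on the deposited values. Gzmb had 7.46 in CD74 and 6.69 in Trem2, and with a ceiling per library it was called higher in CD74 after quantile normalization, median centring and ribosomal centring. Prf1, which forms the pores, had 6.27 in CD74 and 6.56 in Trem2, and Ncr1, an NK cell receptor, had 6.48 and 7.42, so that both were under the ceiling in CD74 and above it in Trem2. Cd244a, an NK cell receptor named after its values were seen, was the gene higher in Trem2, with 7.81 against 5.70. No gene of the list was called higher in Trem2 under any of these scalings, and 11 were higher in CD74 after quantile normalization. The scalings raised CD74 against Trem2, so they are no check on calls in this direction. With a single ceiling 15 genes were compared, and 8 were higher in CD74 and 1 in Trem2.

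Genes of naive and memory lymphocytes gave some of the largest differences toward CD74. Il7r, the survival receptor of naive and memory T cells, had 9.84 in CD74, 5.56 in Trem2, 4.46 in Ccrl2 and 5.15 in CD163, a 19.4-fold difference. Lef1, a transcription factor of naive T cells, had 9.76 in CD74, 5.55 in Trem2, 4.62 in Ccrl2 and 4.73 in CD163. Both barely cleared the ceiling of 5.51 in Trem2 and lay under it in Ccrl2 and CD163. Ccr7, the receptor that guides lymphocytes and mature dendritic cells to lymph nodes, was bright in all 4 libraries, with 14.97 in CD74, 11.68 in Trem2, 11.38 in Ccrl2 and 9.94 in CD163. Satb1, a chromatin organizer of T cells, had 10.75 in CD74 and 8.69 in Trem2. The list as a whole held both directions, with 6 of 17 genes higher in CD74 and 4 in Trem2 and a median difference of 0.17. This became 11 and 1 with a median of 2.08 after quantile normalization and 8 and 4 with a median of 0.99 after median centring. The 4 higher in Trem2 were Cd44, an adhesion receptor of most leukocytes (12.11 in CD74, 15.57 in Trem2), Stk17b, a kinase (15.99 and 18.06), Foxo1 (6.43 and 8.52) and, named after its values were seen, Klf2 (10.11 and 12.05). Stk17b and Klf2 turned to slightly higher in CD74 after quantile normalization, by 0.38 and 0.31, and Foxo1 fell within 2-fold, which left Cd44.

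Smaller lymphoid lists pointed to CD74 where they differed. Of 6 GIMAP genes compared, small GTPases of lymphocytes, Gimap6 (10.46 in CD74, 8.43 in Trem2) and Gimap4 (10.23 and 8.80) were higher in CD74 and 4 lay within 2-fold. Of 5 genes of innate lymphoid, Th17 and regulatory T cells, Ahr (8.62 in CD74, 6.52 in Trem2) and Rora (6.98 and 5.84) were higher in CD74 and 3 within 2-fold, and with a single ceiling Rora lay within 2-fold too. Over the 5 lymphoid lists together, 59 of 91 genes with a probe set were compared, 32 were higher in CD74 and 5 in Trem2, and 30 were higher in CD74 with a single ceiling. Among lymphoid transcription factors the counts ran the other way, with 2 of 13 higher in CD74 (Lef1 and Satb1) and 5 in Trem2. The shares over all genes compared were 7.62% and 32.6%, and the list median was 0.0 against -0.28, so the counts do not set this list apart toward Trem2. Their order turned to 6 in CD74 and 1 in Trem2 after quantile normalization and to 6 and 4 after median centring. Tbx21 and Bcl11b, regulators of type 1 and T cell fate, were under the ceiling in both libraries.

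With capped values entered at their bound, the 15 largest differences toward CD74 ranged from 2.90 to 4.45, and 9 of the 15 genes stood on the lymphoid lists. Background genes, predicted genes and the other classes named under the processing were left out of this ranking. Dusp10, a phosphatase of stress kinases, was the largest, with 14.14 in CD74, 9.69 in Trem2, 8.86 in Ccrl2 and 6.36 in CD163. The further genes outside the lists were Gramd3 (12.21 in CD74, 8.77 in Trem2), Slc35d2 (8.98 and 4.74), Sidt1 (8.51 and 4.10), Rassf10 (8.88 and 5.94) and Timm17b (8.77 and 5.87). Of the 15 genes, 8 were under the ceiling in both Ccrl2 and CD163. The 15 largest differences toward Trem2 were wider, from 8.45 to 10.70, and 14 of these genes had levels above 15 in Ccrl2 and CD163 as well. All 15 genes of each block kept their call under each of the scalings and with a single ceiling. They were picked as the largest differences on these same values, so this is a description and not a check.

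**Figure D2:**
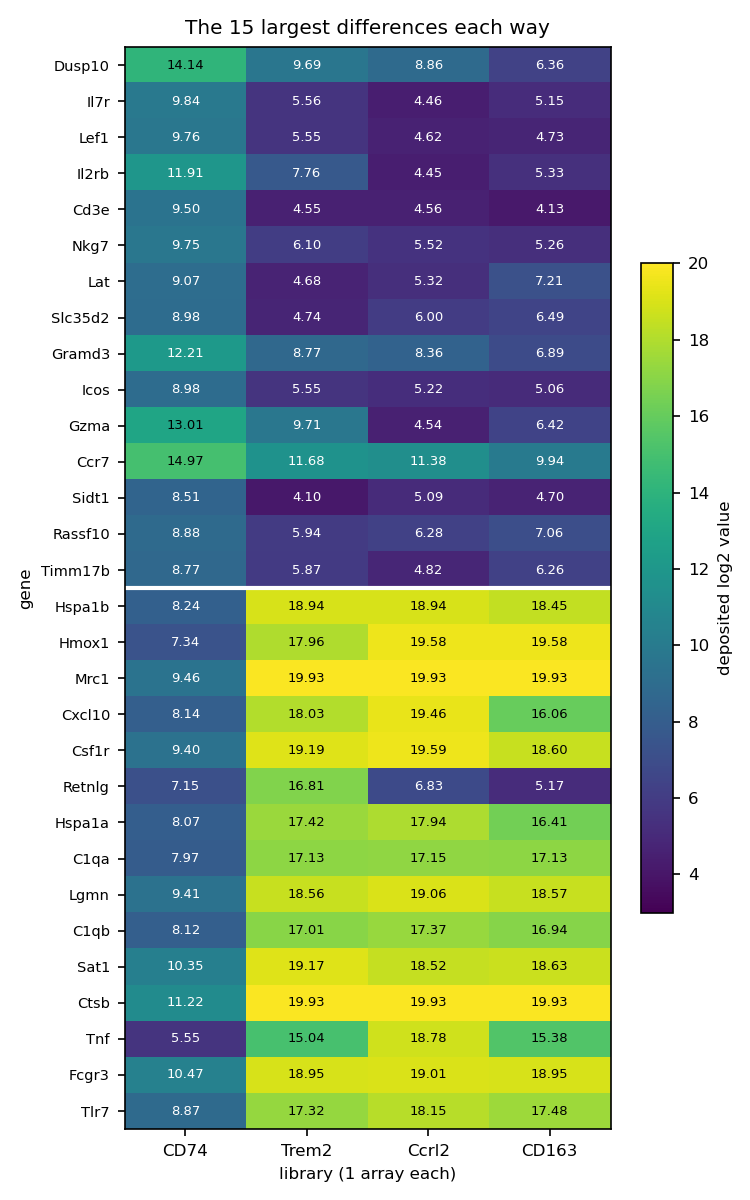
Deposited log2 level (colour and printed value) in each of the 4 libraries, 1 array each, for the 15 genes with the largest difference toward CD74 (upper block) and toward Trem2 (lower block). The lower block is bright in Trem2, Ccrl2 and CD163 alike, except Retnlg, which stands at 16.81 in Trem2 and at 7.15 or less in the other 3.

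The general macrophage programme was lower in the CD74 library without exception among the genes compared. All 21 pan-macrophage genes with a probe set were compared, and 21 were at least 2-fold higher in Trem2, with a median difference of -4.07. After quantile normalization 18 of the 21 remained called and 0 were higher in CD74. Csf1r, the growth factor receptor on which tissue macrophages depend, had 9.40 in CD74, 19.19 in Trem2, 19.59 in Ccrl2 and 18.60 in CD163. CD74 alone lay low, 885-fold under Trem2, yet its value was above its ceiling. Adgre1, an adhesion receptor used as a macrophage surface marker, had 9.66 in CD74, 13.30 in Trem2, 14.45 in Ccrl2 and 13.60 in CD163. Mertk, a receptor for dying cells, and Fcgr1, the high-affinity IgG receptor, were under the ceiling in CD74 at 3.90 and 5.12 and reached 8.85 and 9.50 in Trem2. Sirpa, an inhibitory receptor that restrains phagocytosis, had 8.19 in CD74 and 14.17 in Trem2, and Cd14, a coreceptor for lipopolysaccharide, had 8.58 and 13.26. A pair of inhibitory receptors of close sequence, Lilr4b (10.37 in CD74, 18.78 in Trem2) and Lilrb4a (15.19 and 19.93), also lay far apart, though their probe sets may share signal. In a bulk sample, fewer cells of a type and less RNA per cell cannot be told apart, and this holds for every gene list here.

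Genes of resident heart macrophages followed, with 13 of 19 genes compared higher in Trem2 and 1 in CD74 (median difference -3.33), and 11 and 1 after quantile normalization. Mrc1, the mannose receptor, was at the top of the scale, 19.93, in Trem2, Ccrl2 and CD163 and at 9.46 in CD74, a difference of at least 1420-fold. F13a1, a coagulation factor chain made by macrophages, had 7.51 in CD74, 14.45 in Trem2, 15.64 in Ccrl2 and 17.36 in CD163. Folr2, a folate receptor of resident macrophages, had 6.49 in CD74 and 10.43 in Trem2, and Cbr2, a carbonyl reductase, had 3.69 and 12.17. Igf1, a growth factor, was under the ceiling in CD74 (5.62) and stood at 12.13 in Trem2. Selenop, a selenium carrier, had 15.43 in CD74 and was at the top of the scale in Trem2. Timd4, a marker of self-renewing macrophages, lay within 2-fold, with 6.02 in CD74, under the ceiling, and 6.42 in Trem2, while CD163 held the highest value of 9.54. The exception toward CD74 was Retnla, named after its values were seen, with 8.36 in CD74, 6.31 in Trem2, 7.36 in Ccrl2 and 9.30 in CD163.

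The promoter of Mrc1 is shown because Mrc1 had one of the largest differences toward Trem2 and its upstream sequence held the core GAGGAA, the letters bound by PU.1-type ETS factors, 3 times. It covers the 250 bases before the start, chr2:14229164-14229413 on the plus strand of GRCm38.p6, from RefSeq, 5′ to 3′. The capitals mark the matches, all on the opposite strand and so written as the reverse complement, beginning 180, 167 and 35 bases before the start.

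Mrc1: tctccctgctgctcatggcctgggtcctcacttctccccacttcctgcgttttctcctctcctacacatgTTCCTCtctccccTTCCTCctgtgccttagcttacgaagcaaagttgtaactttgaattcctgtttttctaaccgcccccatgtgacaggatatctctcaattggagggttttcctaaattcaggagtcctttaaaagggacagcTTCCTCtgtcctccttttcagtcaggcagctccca

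Of 15 pan-macrophage genes with a promoter in the table, 60.0% held GAGGAA on either strand, against 22.5% of all genes. The share was 56.2% of 16 T cell genes, so the letters did not separate the lists that were higher in Trem2 from those higher in CD74. Spi1, the gene of PU.1 itself, had 17.70 in CD74 and 19.72 in Trem2, Ccrl2 and CD163 each.

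Lipid-associated macrophage genes, the programme usually tied to TREM2, were higher in Trem2 in 10 of 19 genes compared and in CD74 in 0, with a median difference of -1.26. Cd36, a fatty acid scavenger receptor, was under the ceiling in CD74 (5.69) and stood at 12.56 in Trem2, 12.32 in Ccrl2 and 10.15 in CD163. Fabp4, a fatty acid binding protein of macrophages and capillary endothelium, had 11.27 in CD74 and 17.09 in Trem2. Anxa5, a phosphatidylserine binding protein, had 7.26 in CD74 and 13.40 in Trem2, a 70.5-fold difference. Plin2, a lipid droplet coat protein, had 6.22 and 10.61, and Abca1, a cholesterol exporter, had 7.12 and 11.90. Gpnmb, one of the defining genes of the programme, was under the ceiling in both libraries, at 5.10 in CD74 and 5.37 in Trem2. Of the 19 genes, 10 were highest in Trem2 and 6 in Ccrl2. After quantile normalization 7 of the 19 remained higher in Trem2.

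Complement genes were mostly, and IgG receptor genes all, higher in Trem2 on the deposited values. Complement component C1q has 3 chains. C1qa had 7.97 in CD74, 17.13 in Trem2, 17.15 in Ccrl2 and 17.13 in CD163. C1qb had 8.12 in CD74 and 17.01 in Trem2, and C1qc had 7.79 and 15.01. All 3 chains were above the ceiling in CD74, and all 3 were far brighter in the other libraries. C3ar1 and C5ar1, the anaphylatoxin receptors, had 5.54, under the ceiling, and 7.12 in CD74 and 13.17 and 11.98 in Trem2. Of 10 complement genes compared, 7 were higher in Trem2 and 1 in CD74. That exception was C1s1, a protease of the classical pathway, with 7.32 in CD74, 4.92 in Trem2 and 7.08 in CD163, and it lay within 2-fold with a single ceiling. After quantile normalization 5 complement genes were higher in Trem2 and 2 in CD74. All 6 genes of the IgG receptor list were higher in Trem2, led by Fcgr3 (10.47 in CD74, 18.95 in Trem2) and the inhibitory Fcgr2b (11.68 and 17.57), and 5 of the 6 stayed so after quantile normalization.

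Neutrophil genes were mostly brightest in the Trem2 library. Of 24 with a probe set, 18 were compared, 13 were higher in Trem2 and 1 in CD74 (median difference -3.32), and Trem2 held the highest of the 4 values for 16 of the 18. Retnlg, a secreted resistin-like protein of neutrophils, had 7.15 in CD74, 16.81 in Trem2, 6.83 in Ccrl2 and 5.17 in CD163. Trem2 was the only library with a bright value, 809-fold over CD74. S100a8 and S100a9, the paired calcium-binding proteins of neutrophil cytosol, had 6.81 and 6.84 in CD74 and 12.29 and 12.55 in Trem2, with no value over 7.19 in Ccrl2 or CD163. Lcn2, an iron-sequestering granule protein, had 5.62 in CD74, 13.23 in Trem2, 5.76 in Ccrl2 and 4.57 in CD163. It and Ngp, another granule protein (4.88 in CD74, 4.70 in Ccrl2 and 4.68 in CD163, with Trem2 the only library above its ceiling), were under the ceiling in CD74. Csf3r, the granulocyte growth factor receptor, had 8.31 in CD74 and 13.16 in Trem2, with 9.03 in Ccrl2 and 7.67 in CD163, so some signal was present in every library. Hdc, which makes histamine, had 7.48 in CD74, 13.77 in Trem2, 8.89 in Ccrl2 and 5.85 in CD163. Il1r2, a decoy receptor, had 4.78 in CD74 and 10.39 in Trem2. The pattern was not shared by Cd33, a myeloid surface receptor, which was highest in Ccrl2 at 10.53, against 6.24 in CD74 and 10.08 in Trem2. Mpo, a peroxidase of granulocyte precursors named after its values were seen, had 6.92 in CD74 and 4.73 in Trem2 and was within 2-fold with a single ceiling. After quantile normalization 11 of the 18 were higher in Trem2.

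Monocyte genes divided along a finer line. Of 20 compared, 12 were higher in Trem2 and 1 in CD74, with a median difference of -1.56, and after quantile normalization 7 and 3, with a median of -0.11. The exception was Ly6c2, the classical monocyte marker that some memory T cells and other lymphocytes also carry, with 12.55 in CD74, 10.98 in Trem2, 6.90 in Ccrl2 and 5.99 in CD163. Ccr2, the receptor that brings monocytes into tissue, had 8.60 in CD74, 7.76 in Trem2, 7.49 in Ccrl2 and 4.32 in CD163, within 2-fold between the first pair and higher in CD74 after quantile normalization, median centring and ribosomal centring. Both defining genes were therefore highest in CD74. Further genes of the list were highest in Trem2. Plac8 had 9.65 in CD74 and 12.52 in Trem2 and fell within 2-fold after quantile normalization. Gsr, glutathione reductase, had 8.44 and 11.99, Msrb1 had 7.56 and 11.27, and Napsa, an aspartic protease, had 6.11 and 10.02.

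**Figure D3:**
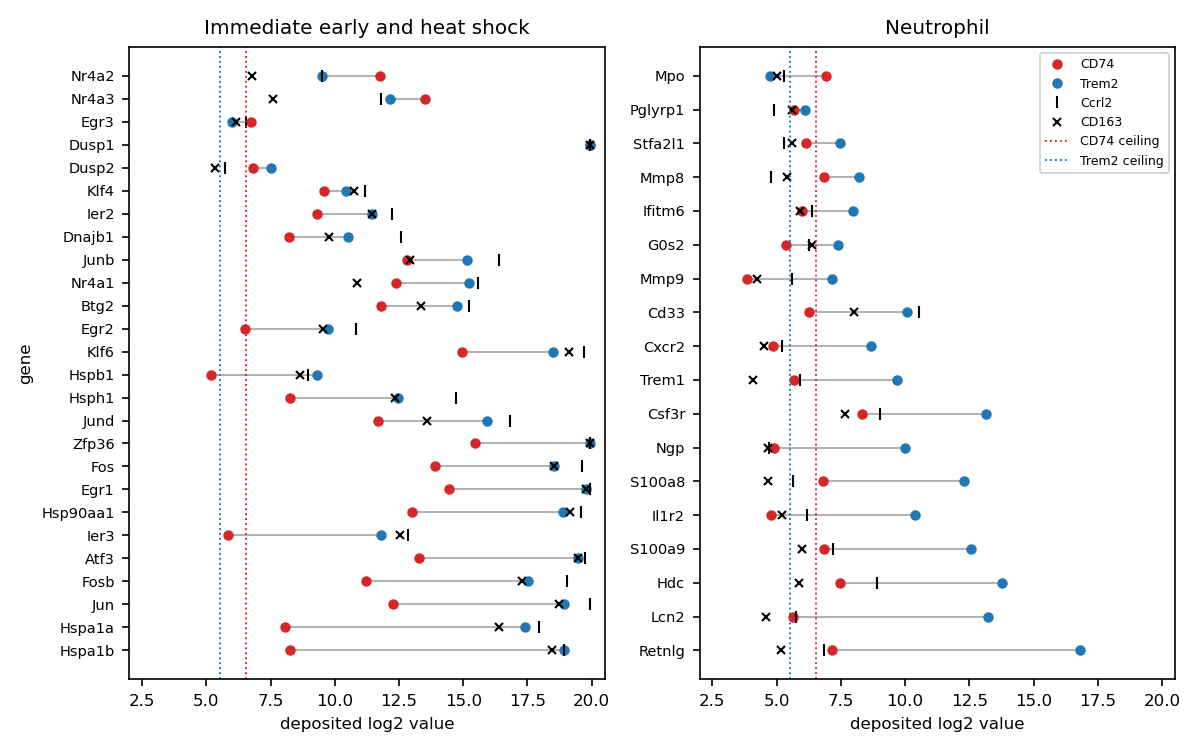
Deposited log2 level in the CD74 and Trem2 libraries (circles joined by a line), the Ccrl2 library (bars) and the CD163 library (crosses), 1 array each, for every compared gene of the immediate early and heat shock list (left) and the neutrophil list (right), with the ceilings of CD74 and Trem2 dotted. Stress genes are high in Trem2, Ccrl2 and CD163 together, as with Hspa1b at 18.94, 18.94 and 18.45. Some neutrophil genes, such as Retnlg, are high in Trem2 alone, while others, such as Csf3r and Cd33, are above the ceiling in Ccrl2 too.

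B cell genes were mostly brightest in the Trem2 library as well. Of 20 B and plasma cell genes compared, 11 were higher in Trem2 and 0 in CD74, with a median difference of -1.13, and Trem2 held the highest of the 4 values for 18. Cd79b, a signalling chain of the B cell receptor, had 6.65 in CD74, 10.26 in Trem2, 6.65 in Ccrl2 and 5.30 in CD163. Its partner Cd79a had 10.70 in CD74, 11.80 in Trem2, 9.66 in Ccrl2 and 6.31 in CD163. The partners thus differed by 3.61 and 1.10, and Cd79a turned to higher in CD74 by 1.16 after quantile normalization while Cd79b stayed higher in Trem2. Ms4a1, the target of B cell depleting antibodies, lay within 2-fold, with 6.57 in CD74 and 7.34 in Trem2. Bank1, a B cell scaffold protein, had 10.30 and 13.33, Jchain, the joining chain of secreted antibodies, had 7.67 and 10.07, and Pou2af1, a B cell coactivator, had 6.50 and 8.87. The direction of the list depended on the scale: after quantile normalization 3 genes were higher in CD74 and 2 in Trem2, and after median centring 1 and 5.

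The adaptors that signal through the ITAM motif, a paired tyrosine motif in their cytoplasmic tails, divided by lineage. All 8 were compared, and none lay within 2-fold. The 4 chains of the T cell receptor complex, Cd3e, Cd3d, Cd3g and Cd247, were higher in CD74. The 4 others were higher in Trem2, namely the B cell chains Cd79a and Cd79b and the myeloid adaptors Tyrobp and Fcer1g. Tyrobp, the partner of TREM2, had 6.84 in CD74, 10.40 in Trem2, 10.15 in Ccrl2 and 9.37 in CD163. Fcer1g, the common gamma chain of Fc receptors, had 10.97 in CD74, 14.33 in Trem2, 14.63 in Ccrl2 and 13.45 in CD163. Of these 8 genes Cd79a was the one whose direction turned under a scaling.

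Antigen presentation genes were lower or equal in the library titled CD74. Of 15 MHC class II presentation genes compared, 11 were higher in Trem2 and 0 in CD74, with a median difference of -1.75. H2-Ab1, the beta chain of I-A, had 16.01 in CD74, 16.97 in Trem2, 17.15 in Ccrl2 and 10.31 in CD163, within 2-fold between CD74 and Trem2. H2-Aa, its alpha chain, had 16.03 in CD74, 17.78 in Trem2, 19.20 in Ccrl2 and 14.35 in CD163. The chains of I-A were thus bright in CD74, and both turned to higher in CD74 after quantile normalization, H2-Aa by 0.92 and so within 2-fold. H2-Eb1, the beta chain of I-E, had 11.38 in CD74 and 14.12 in Trem2. Costimulatory genes were much further apart, with Cd83 at 9.41 in CD74 and 17.11 in Trem2, Cd86 at 6.80 and 11.54, and Cd80 at 6.51, under the ceiling, and 10.24. Ifi30, a lysosomal thiol reductase, had 9.29 and 13.87, and H2-DMb2, which edits peptides on class II, had 7.75 and 11.40. After quantile normalization 5 of the 15 were higher in Trem2 and 2 in CD74.

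Of 18 dendritic cell genes with a probe set, 11 lay under the ceiling in both libraries. Flt3, Zbtb46, Xcr1 and Siglech, the defining genes, were under the ceiling in both libraries, at 4.85, 4.14, 5.46 and 6.09 in CD74 and 4.22, 4.03, 4.65 and 5.47 in Trem2. Of 7 genes of the list compared, 2 were higher in Trem2. Tcf4, which B cells, stromal cells and plasmacytoid dendritic cells share, had 8.90 in CD74 and 13.69 in Trem2, and Tlr3 had 5.67, under the ceiling, and 8.60. Cd209a, a lectin of monocyte-derived dendritic cells, lay within 2-fold at 6.87 in CD74 and 6.53 in Trem2.

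Inflammatory transcripts were lower in CD74 than in Trem2, though 13 genes of the list were above the ceiling in CD74. Of 24 NF-kB target genes compared, 20 were higher in Trem2 and 0 in CD74 (median difference -2.42). Tnf, a central inflammatory cytokine, had 5.55 in CD74, under the ceiling, 15.04 in Trem2, 18.78 in Ccrl2 and 15.38 in CD163. Nlrp3, the inflammasome sensor, was also under the ceiling in CD74 (5.26) and reached 12.91 in Trem2. Acod1, which makes itaconate, had 6.15 in CD74, 13.77 in Trem2, 8.92 in Ccrl2 and 4.32 in CD163. Unlike Tnf, it was highest in Trem2 and under the ceiling in CD163. Ptgs2, a prostaglandin synthase, likewise peaked in Trem2, with 6.94 in CD74, 12.90 in Trem2, 10.12 in Ccrl2 and 8.26 in CD163. Il1b was bright in CD74, with 16.33 against 18.34 in Trem2, and turned to higher in CD74 by 0.42 after quantile normalization. Nfkbia, the inhibitor of NF-kB, had 14.66 and 17.96, and Nfkbiz, a nuclear cofactor, had 10.74 and 15.25. With quantile normalization 11 of the 24 were higher in Trem2 and 1 in CD74.

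Chemokine ligands had one of the lowest list medians, -4.31, with 12 of 18 compared genes higher in Trem2 and 0 in CD74. Cxcl10, an interferon-induced attractant of T and NK cells, had 8.14 in CD74, 18.03 in Trem2, 19.46 in Ccrl2 and 16.06 in CD163, a 949-fold difference. Ccl4 had 10.82 in CD74 and 18.46 in Trem2, and Ccl3 had 13.76 in CD74 and the top of the scale, 19.93, in Trem2. Cxcl2, a neutrophil attractant, had 14.51 in CD74 and the same top value in Trem2, Ccrl2 and CD163. Ccl2 and Ccl12, attractants of monocytes, were under the ceiling in CD74 at 5.86 and 5.29 and stood at 12.27 and 12.15 in Trem2. Cxcl16, a scavenger receptor as well as a chemokine, had 7.76 and 14.76. Of 10 chemokine receptors compared, Ccr7 was higher in CD74 and 5 were higher in Trem2. These were Ccrl2, Ccr1 (5.83 in CD74, 9.74 in Trem2), Cx3cr1 (5.13 and 8.82), Cxcr2 (4.84 and 8.69) and, named after its values were seen, Cxcr5 (5.56 and 7.60). Cxcr2, a neutrophil receptor, was under the ceiling in Ccrl2 and CD163 too. After quantile normalization the receptors stood at 4 genes each way.

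Interferon response genes had smaller differences than chemokine ligands once dim values were raised to their ceiling. With dim values as deposited their median was -2.06, against -1.01 over all genes compared. Of 22 compared, 10 were higher in Trem2 and 0 in CD74, with a median difference of -0.98, and 14 of the 22 were highest in Ccrl2. Ifih1, a sensor of viral RNA, had 7.24 in CD74, 12.52 in Trem2, 15.15 in Ccrl2 and 11.63 in CD163. Ifit3 had 6.93 and 8.99 in CD74 and Trem2, and Irgm1, an immunity GTPase, had 6.70 and 8.99. Ifit1 was under the ceiling in CD74 (5.81) and had 8.05 in Trem2. Isg15 and Irf7 were under the ceiling in CD74 and lay within 2-fold, with 6.25 and 6.79 in Trem2. Only 4 genes of the list were above the ceiling in CD74, so that most differences are bounds. After quantile normalization 3 of the 22 were higher in Trem2 and 1 in CD74.

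The upstream sequence of Cxcl10 is shown because Cxcl10 had one of the largest differences toward Trem2 and held the interferon-stimulated element, searched on both strands as GAAA, any 2 bases and GAAA again. It covers the 250 bases before the start, chr5:92348890-92349139 on the minus strand of GRCm38.p6, from RefSeq, 5′ to 3′, with the match in capitals beginning 213 bases before the start.

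Cxcl10: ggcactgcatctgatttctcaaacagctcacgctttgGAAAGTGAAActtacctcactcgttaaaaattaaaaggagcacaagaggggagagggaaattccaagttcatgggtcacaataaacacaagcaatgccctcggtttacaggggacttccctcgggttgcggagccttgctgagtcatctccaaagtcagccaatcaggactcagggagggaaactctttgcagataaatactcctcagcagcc

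Of 19 interferon response genes with a promoter in the table, 57.9% held these letters on either strand, against 3.03% of all 15691 genes and 13.3% of 15 chemokine ligands.

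Sensing receptors followed the macrophage genes, with 15 of 19 pattern recognition genes higher in Trem2 and 0 in CD74 (median difference -2.43). Tlr7, an endosomal receptor for RNA, had 8.87 in CD74, 17.32 in Trem2, 18.15 in Ccrl2 and 17.48 in CD163. Tlr2, a receptor for bacterial lipoproteins, had 7.77 in CD74 and 13.49 in Trem2. Tlr4, the lipopolysaccharide receptor, was under the ceiling in CD74 (5.91) and had 9.58 in Trem2, and its partner Ly96 had 6.73 and 10.72. Clec4e, a lectin of activated myeloid cells, had 8.60 in CD74, 12.28 in Trem2, 8.62 in Ccrl2 and 6.63 in CD163. Its level in Ccrl2 was close to that in CD74. After quantile normalization 10 of the 19 were higher in Trem2 and 1 in CD74.

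Immediate early and heat shock genes, which respond within minutes to stress, growth factors or cell handling, were among the most strongly split. Of 26 compared, 20 were higher in Trem2 and 2 in CD74, with a median difference of -3.37. Hspa1b, an inducible heat shock chaperone, had a 1660-fold difference, with 8.24 in CD74, 18.94 in Trem2, 18.94 in Ccrl2 and 18.45 in CD163. Hspa1a, a near-identical neighbouring copy, had 8.07 in CD74, 17.42 in Trem2, 17.94 in Ccrl2 and 16.41 in CD163, and probe sets may not tell the copies apart. CD74 alone lay low for both. Jun and Fos, the subunits of the AP-1 factor, had 12.27 and 13.91 in CD74 and 18.92 and 18.55 in Trem2. Atf3 had 13.29 and 19.47, Egr1 14.44 and 19.79, and Fosb 11.20 and 17.52. These genes were bright in CD74 too, and their differences lay between 4.64 and 6.65. Hsp90aa1, the stress-inducible form of a cytosolic chaperone, had 13.01 in CD74 and 18.87 in Trem2. The 2 genes higher in CD74, named after their values were seen, were the nuclear receptors Nr4a2 (11.75 in CD74, 9.48 in Trem2, 9.51 in Ccrl2 and 6.79 in CD163) and Nr4a3 (13.52, 12.14, 11.80 and 7.61). These receptors are induced by antigen receptor signalling as well as by stress. The direction of the list held under every scaling, with 15 genes higher in Trem2 and 4 in CD74 after quantile normalization.

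The promoters of Hspa1b and Hspa1a are shown because these genes lead the stress list and their upstream sequences can be compared. They cover the 250 bases before each start on the minus strand of GRCm38.p6, chr17:34959239-34959488 for Hspa1b and chr17:34972157-34972406 for Hspa1a, from RefSeq, 5′ to 3′. The capitals mark the only match to the heat shock element core GAANNTTC, N being any base, 104 bases before each start.

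Hspa1b: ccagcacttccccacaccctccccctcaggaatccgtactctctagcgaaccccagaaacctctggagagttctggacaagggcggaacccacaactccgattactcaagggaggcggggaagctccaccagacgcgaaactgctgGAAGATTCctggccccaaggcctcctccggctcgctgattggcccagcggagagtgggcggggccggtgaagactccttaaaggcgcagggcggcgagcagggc

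Hspa1a: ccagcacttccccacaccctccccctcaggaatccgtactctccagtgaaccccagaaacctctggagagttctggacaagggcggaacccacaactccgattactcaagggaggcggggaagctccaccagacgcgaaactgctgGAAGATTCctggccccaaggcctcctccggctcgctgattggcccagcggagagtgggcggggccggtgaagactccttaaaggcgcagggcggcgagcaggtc

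The start sites lie 12918 bases apart, and 247 of the 250 bases were the same at the same place. Of 22 stress list genes with a promoter in the table, 18.2% held GAANNTTC, against 6.02% of all genes and 12.5% of 16 T cell genes.

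Lysosomal genes had a median difference of -4.10, with 21 of 25 higher in Trem2 and 0 in CD74. Ctsb, a cathepsin, had 11.22 in CD74 and stood at the top of the scale in Trem2, Ccrl2 and CD163. Lgmn, an asparagine-cleaving protease, had 9.41 in CD74 and 18.56 in Trem2, a 568-fold difference. Grn, the lysosomal growth factor progranulin, had 8.00 in CD74, 15.71 in Trem2, 16.52 in Ccrl2 and 17.29 in CD163. Ctsc, which activates granule proteases in T cells, NK cells and neutrophils as well, had 13.20 and 19.88, and Lamp1, a membrane protein of lysosomes in all cells, had 10.07 and 14.94. After quantile normalization 16 remained higher in Trem2 and 1 was higher in CD74.

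Iron and antioxidant genes were higher in Trem2 or within 2-fold. Hmox1, haem oxygenase, had a 1570-fold difference, with 7.34 in CD74, 17.96 in Trem2, 19.58 in Ccrl2 and 19.58 in CD163. Ftl1, ferritin light chain, had 9.97 in CD74 and 15.61 in Trem2, whereas Fth1, its heavy chain, was at the top of the scale in all 4 libraries, so that it counts as within 2-fold with no difference measurable. Slc40a1, the iron exporter, lay within 2-fold at 6.61 and 6.81. Slc7a11, a cystine transporter, had 7.98 in CD74, 11.73 in Trem2, 8.81 in Ccrl2 and 7.57 in CD163. Of 18 genes compared, 13 were higher in Trem2 and 0 in CD74, and 7 were higher in Trem2 after quantile normalization. Sat1, a polyamine-degrading enzyme outside this list, had 10.35 in CD74 and 19.17 in Trem2. Efferocytosis genes, which serve the uptake of dying cells, were higher in Trem2 in 9 of 14 cases and in CD74 in 0. Axl, a receptor kinase for dying cells, had 5.62 in CD74, under the ceiling, 11.33 in Trem2 and 13.29 in Ccrl2. Its ligand Gas6 was also under the ceiling in CD74, at 6.45, with 10.72 in Trem2 and 12.81 in CD163, and Lrp1 had 4.67 and 11.06. Mfge8, a bridging protein, lay within 2-fold. After quantile normalization 7 of the 14 were higher in Trem2.

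Signalling and transcription factor genes shared by lymphoid and myeloid cells were closer between the libraries. Of 17 common gamma chain and JAK-STAT genes compared, 7 were higher in Trem2 and 0 in CD74, and this turned to 3 and 4 after quantile normalization. Il10ra, the interleukin receptor that damps macrophage activation, had 8.58 in CD74 and 13.59 in Trem2. Stat4, a factor of type 1 lymphocytes, lay within 2-fold at 8.17 in CD74 and 8.30 in Trem2 and was at 4.64, under the ceiling, in CD163. Of 15 myeloid transcription factor genes compared, 7 were higher in Trem2 and 0 in CD74. Zfp36l1, an RNA-binding regulator, had 7.85 in CD74 and 13.27 in Trem2, and Hif1a had 8.00 and 11.41. Maf had 7.51 in CD74, 9.99 in Trem2 and its highest value, 11.51, in CD163. After quantile normalization 3 of the 15 were higher in Trem2 and 2 in CD74.

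Matrix and adhesion genes were higher in Trem2 or within 2-fold. Of 24 matrix and proteolysis genes compared, 11 were higher in Trem2 and 0 in CD74, and 6 of those with a probe set were above the ceiling in CD74. Sdc4, a proteoglycan of focal adhesions, had 5.23 in CD74, 12.85 in Trem2 and 16.26 in Ccrl2. Thbs1, a matrix protein that activates transforming growth factor beta, had 6.21 in CD74, 10.86 in Trem2, 8.21 in Ccrl2 and 4.69 in CD163. Tgfbi had 8.69 and 14.91, and Timp2, a protease inhibitor, had 7.21 and 12.61. Mmp9 and Timp1 were under the ceiling in CD74, and Timp1 also in Trem2. After quantile normalization 8 of the 24 were higher in Trem2 and 1 in CD74. Of 19 leukocyte integrin and adhesion genes, 10 were higher in Trem2 and 0 in CD74, which became 4 and 2 after quantile normalization and 7 and 0 after median centring. Itgam, an integrin chain of myeloid cells, had 8.62 in CD74 and 12.87 in Trem2. Itgal, the chain of the lymphocyte integrin, had 7.98 in CD74, 10.05 in Trem2, 5.65 in Ccrl2 and 5.18 in CD163, under the ceiling in the last pair, and lay within 2-fold after quantile normalization.

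General cellular genes showed how far the scale decides. Of 50 cytosolic ribosomal protein genes compared, 12 were higher in Trem2 and 4 in CD74, with a median difference of -0.38, and this turned to 1 and 41 after quantile normalization and to 5 and 15 after median centring. The 4 higher in CD74 on the deposited values were Rpl17 (19.69 in CD74, 17.38 in Trem2), Rpl14 (15.97 and 13.92) and, named after their values were seen, Rpl29 (13.24 and 12.08) and Rplp1 (15.41 and 14.34). Rps9 went the other way, with 8.02 in CD74 and 11.14 in Trem2. Of 17 housekeeping genes, 6 were higher in Trem2 and 0 in CD74, which turned to 0 and 4 after quantile normalization. Gapdh had 14.86 in CD74 and 16.86 in Trem2 and was higher in CD74 by 0.38 after quantile normalization. Ppia differed by 0.07 on the deposited values (14.95 and 15.02), and Actb, at the top of the scale in all 4 libraries, had no measurable difference. Of 38 oxidative phosphorylation genes, 19 were higher in Trem2 and 0 in CD74, and after quantile normalization 4 stood each way. Uqcrb had 10.69 in CD74 and 13.92 in Trem2, and Cox8a had 6.46, under the ceiling, and 10.46. Of 21 cell cycle genes, 4 were higher in Trem2 and 2 in CD74, which turned to 2 and 3 after quantile normalization. Pcna, the sliding clamp of replication, had 11.75 in CD74 and 16.75 in Trem2, and Mki67, a proliferation marker, had 6.14, under the ceiling, and 9.13. Cdk1 was under the ceiling in both, and Kif11 (7.16 and 6.12) and Rrm2 (6.68 and 5.46) were the genes higher in CD74, both within 2-fold with a single ceiling.

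Markers of other heart cells were also present, and on the deposited values more of them were higher in Trem2 than in CD74. The same held for all genes compared, with 32.6% higher in Trem2 and 7.62% in CD74, so the direction is not particular to these markers. Of 9 fibroblast genes compared, 5 were higher in Trem2 and 0 in CD74. Dcn, a matrix proteoglycan, had 4.71 in CD74, under the ceiling, 12.67 in Trem2, 12.65 in Ccrl2 and 7.01 in CD163, and Sparc had 7.60, 14.09, 14.13 and 8.77 in the same order. Col1a1, a defining gene, lay within 2-fold at 7.87 in CD74 and 6.91 in Trem2, and was called higher in CD74 after quantile normalization, median centring and ribosomal centring. After quantile normalization 3 fibroblast genes were higher in Trem2 and 1 in CD74. Of 10 endothelial genes, 5 were higher in Trem2 and 1 in CD74. Cdh5, the junction cadherin, had 6.36, under the ceiling, in CD74 and 11.31 in Trem2, and Kdr had 5.44 and 9.03, whereas Tek was under both ceilings. After quantile normalization 4 endothelial genes were higher in Trem2. The gene higher in CD74 was Esam (6.84 and 5.78), within 2-fold with a single ceiling. Of 15 cardiomyocyte genes, 7 were higher in Trem2 and 0 in CD74. Myl2, the ventricular light chain, had 9.64 in CD74, 13.39 in Trem2, 12.50 in Ccrl2 and 11.04 in CD163, while Actc1 lay within 2-fold at 9.69 and 9.81 and was higher in CD74 after quantile normalization, when 4 cardiomyocyte genes were higher in Trem2. Of 3 mural genes compared, 0 differed 2-fold either way. Of 4 erythrocyte and platelet genes, Pf4 was higher in Trem2 (5.71 in CD74, 10.58 in Trem2) and Clec1b in CD74 (6.69 and 5.18, within 2-fold with a single ceiling). Alas2 and Ppbp, defining genes of red cells and platelets, were under both ceilings. The part of these cell types, and of T cells and neutrophils, in the differences between the libraries was not tested.

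**Figure D4:**
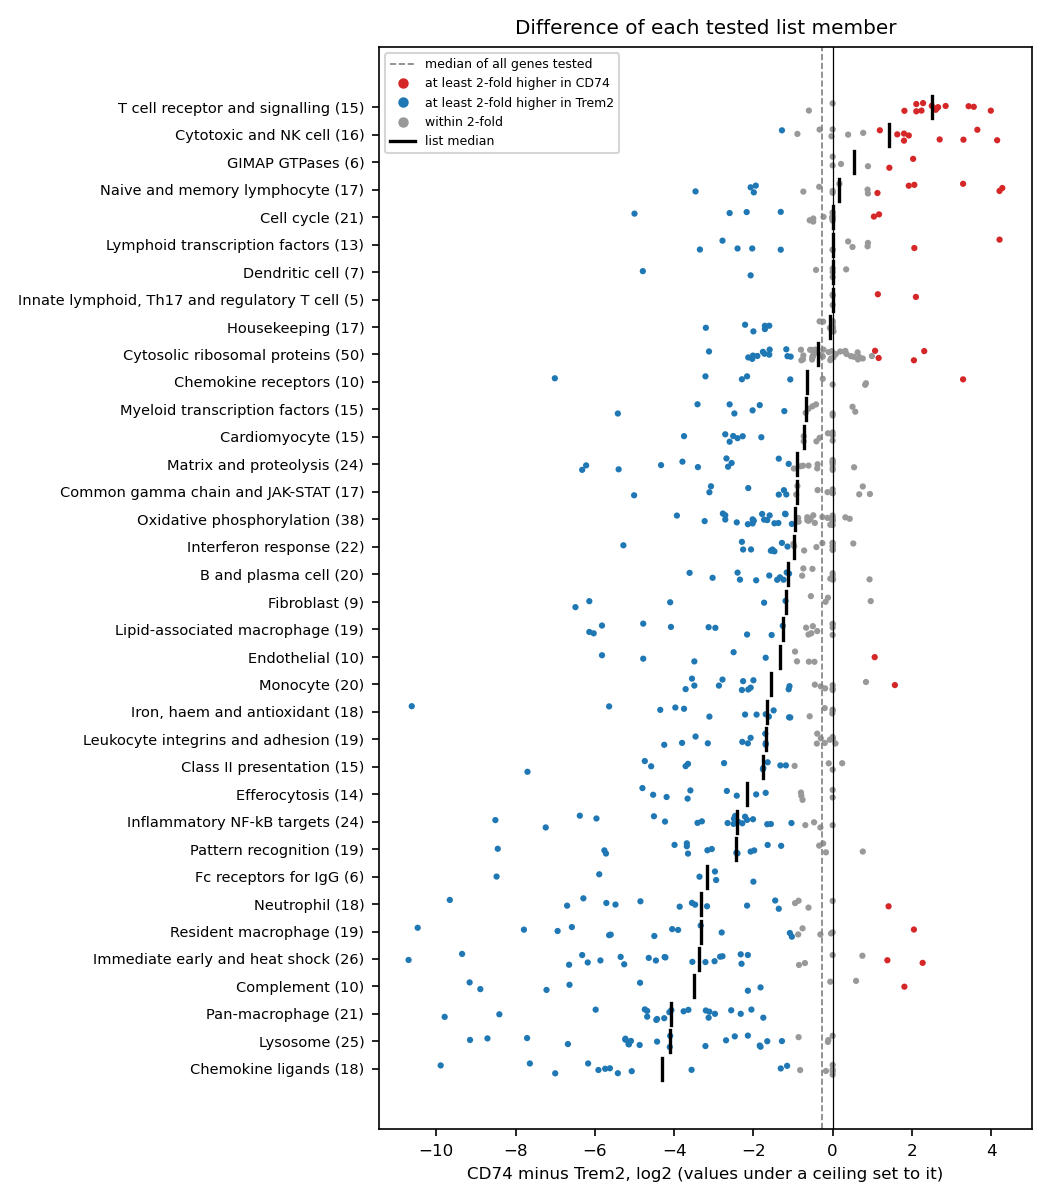
Difference between the CD74 and Trem2 libraries in log2 units (x axis, levels under a ceiling raised to it), 1 point per compared gene, for each gene list with at least 5 genes compared (number in brackets), with the list median as a bar and the median over all genes compared, -0.28, dashed. T cell genes have the highest median, 2.50, and chemokine ligands, lysosomal and pan-macrophage genes the lowest, -4.31, -4.10 and -4.07.

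The counts of called genes under each scale are compared in the plot of the scalings. The larger group of calls changed from Trem2 to CD74 under quantile normalization with a ceiling per library and was level, 914 and 905, with a single ceiling. All 649 genes first called higher in CD74 remained among the 1543, and 905 of the 2782 first called higher in Trem2 remained after quantile normalization. Each scaling raised CD74 against Trem2, and with a ceiling per library all 649 were kept under each of them. These scalings are therefore no check on the calls toward CD74, and the shares kept in the 2 directions are not comparable.

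**Figure D5:**
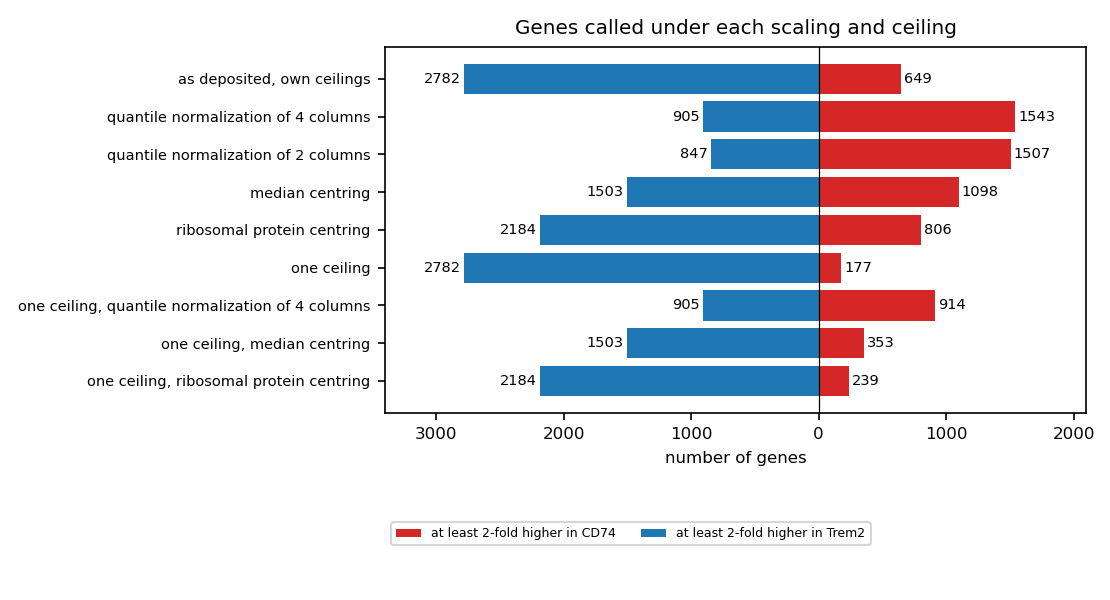
Number of genes at least 2-fold higher in Trem2 (left, blue) or CD74 (right, red) on the deposited values and under each scaling, with a background ceiling per library and with a single ceiling for both, 1 array per library. Genes higher in Trem2 range from 847 to 2782 and genes higher in CD74 from 177 to 1543.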

How the data were processed

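Each library was 1 Clariom S mouse array. Per the labels' protocols, a small-input whole-transcript kit turned total RNA into amplified, biotin-labelled target for hybridisation, and robust multichip average (RMA) did background correction, normalization and summary. GeneSpring is named there, and Affymetrix Expression Console in the submitters' processing notes. For RMA settings and annotation build, these were not given in the sources used here. Values deposited by the authors are on the log2 scale, as judged from their range, and stop at 19.93, the log2 of 1000000. The authors' columns did not share 1 distribution, so counts of calls carry that difference, and differences near the top are compressed.

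Of 28846 probe sets, the platform annotation gave 19572 a single gene and 0 several, and controls were left out. The probe set with the highest mean over the 4 libraries stood for a gene, which mattered for 55 of 19505 genes. Values within 0.015 of the top counted as at the top, and genes at the top in both libraries (9) were not called. Where raising a dim value to its ceiling would turn the sign, the difference was set to 0, a step added after the values were seen that changes no call. Named genes were the markers Cd3e, Il2rb, Retnlg and Csf1r, the sort markers, the 15 largest differences each way, the defining genes of each list and up to 5 further members with the largest difference, and the ITAM adaptors. Predicted genes, small RNA genes, receptor segments, histones, sex-linked markers and the chemosensory receptor and keratin-associated background genes were left out of the largest. Genes outside this rule are named as picked after their values were seen. The 39 lists hold 820 genes, 741 with a probe set and 613 compared. The genes, lists and rules were chosen with earlier results of these data known. The planned search for the ITAM motif in proteins was not run.

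Promoters were the first one listed per gene in RefSeq GRCm38.p6. Motifs (4, over 7 lists) and printed promoters were chosen after the values were seen. Of 13 promoters looked at, 8 held the motif searched and 5 (Hsph1, Retnlg, Cd3g, Cd3e and Il7r) did not, and 5 of the 8 are printed. Python 3.11.15, pandas 2.3.3 and numpy 2.4.6 were used.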

Additional observations from a re-analysis of the deposited data

How the results depend on the processing

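No paired analysis was possible because each group is 1 array and the labels carry no replicate numbers, and no library could be left out for the same reason. The 649 genes higher in CD74 became 1543 and 1507 after quantile normalization of 4 and of 2 columns, 1098 after median centring, 980 and 246 with a ceiling at the 90th and 99th percentile, 2508 of 19505 without a filter and 82 at 4-fold. The 2782 genes higher in Trem2 became 905 and 847 after quantile normalization, 1503 after median centring, 4479 without a filter, 4300 with dim values as deposited and 1300 at 4-fold. Chosen after the data were seen, a single ceiling gave 177 genes higher in CD74, 914 with quantile normalization, 353 with median centring and 239 with ribosomal centring, and 905 and 1503 higher in Trem2 with the first pair of these. Ribosomal centring (806 and 2184), the mean over probe sets (646 and 2779), a 1.5-fold threshold (834 and 3566) and leaving out genes at the top of the scale (649 and 2771) stayed within 1.5 times of the counts on deposited values. Quantile normalization turned the order of counts in 6 lists, leaving 2 B cell, 3 JAK-STAT, 1 lymphoid factor, 2 cell cycle, 1 ribosomal and 0 housekeeping genes higher in Trem2, and median centring turned it for lymphoid factors (4) and ribosomal proteins (5). Among named genes, quantile normalization of 4 and of 2 columns turned Cd79a to 1.16 and 1.15, H2-Aa to 0.92 and 0.76, Il1b to 0.42 and 0.4, Gapdh to 0.38 and 0.42, Stk17b to 0.38 and 0.31 and Klf2 to 0.31 and 0.32, CD74 minus Trem2, with the first value of each the same under a single ceiling. The cause was not tested. Of 177 named genes with a call, 142 kept it under every alternative that tested them. Many were named for the size of their difference on these same values, and the scalings raised CD74 against Trem2. The count is therefore a description and not a check. The limits are 1 array per group, a CD74 library with a high ceiling and few genes above it, and a compressed top of the scale.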
